A study of Mus musculus with 2 samples.

Results

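The genes described here are 42 genes of DNA replication and S phase, of 27998 genes in the count matrices. They were taken as a fixed list of symbols covering origin licensing and the helicase (11 genes), synthesis at the fork (8), nucleotide supply (3), chromatin and histone supply (8), checkpoint and repair (8), and cyclins and regulators (4), and each symbol matched exactly 1 row of the matrices. In the GENCODE annotation of GRCm38, the build that mm10 is based on, 0 members had an exon that overlaps another protein-coding gene on the same strand. Their UMIs, the unique molecular tags that count captured mRNA molecules, were read in single epithelial cells of back skin from C57BL/6 mouse embryos at embryonic day 17. The control library (Ctrl) was Mettl3 fl/+, Rosa16-YFP fl/+, K14Cre, and the conditional knockout library (cKO) was Mettl3 fl/fl, Rosa16-YFP fl/+, K14Cre. Both thus carry the Cre, the YFP reporter and at least 1 floxed allele of Mettl3, which encodes the catalytic subunit of the mRNA N6-adenosine methyltransferase, and the control is heterozygous rather than wild type. K14-Cre acts in the skin epithelium, and sorted YFP+ cells are those in which the Cre had been active.

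There was 1 library per genotype, so no difference between genotypes could be tested, and all intervals below are 95% intervals that cover counting error only. How many embryos went into each library is not given in the sources used here. Barcodes with at least 1800 genes were kept, which gave 4447 Ctrl and 3577 cKO cells with median depths of 8941 and 8581 UMIs. Xist was found in 99.8% of Ctrl and 0.0280% of cKO cells and Y-linked genes in 0.112% and 64.3%, so that sex and genotype cannot be told apart. Mettl3 itself had 557 UMIs in Ctrl and 211 in cKO, or 12.7 and 6.18 CPM (UMIs per 1000000 UMIs), and because tags come from the 3′ end they do not read the deleted exon. The libraries shared 16 kept barcodes, where 21.6 would be shared by random draws.

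Before S phase, the six-subunit MCM2-7 helicase is loaded at origins by the licensing factors, and it is switched on at S-phase entry by CDC45 and the GINS complex. Primase and the polymerases then copy the strands, the RFC clamp loader places the PCNA clamp, and FEN1 and DNA ligase I process and seal Okazaki fragments. E2F factors drive many of these genes as cells pass from G1 into S, and in skin such cells lie mostly in the basal layer of the epidermis and in growing hair follicles.

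Cells were assigned to types by marker genes outside the list. The gates gave basal (Krt5, Krt14; 2942 Ctrl and 1954 cKO cells), suprabasal (Krt1, Krt10; 470 and 361), follicle WNT-high (294 and 338) and follicle WNT-low (451 and 437) cells. A further 216 and 441 cells passed no gate and are called ungated. The basal keratins were themselves lower in cKO, with Krt5 at 4093 CPM in Ctrl and 2713 in cKO over all kept cells and Krt14 at 7771 and 5336, and the share of basal-gated cells was 66.2% and 54.6%. Whether the gate left basal cells of cKO among the ungated ones was not tested. Dcn, a gene of fibroblasts, was at 719 CPM in Ctrl and 622 in cKO over all kept cells, and at 760 and 658 in basal-gated cells, and was left out of the gate on other cells. The other markers of fibroblasts, melanocytes, immune cells and vessels summed to 52.9 CPM in Ctrl and 37.8 in cKO, and to 18.8 and 17.4 in basal-gated cells. Among them Ptprc of immune cells had 0 and 1 UMIs and Cdh5 of vessels 1 and 0, while Col1a2 of fibroblasts had 523 and 389 and Dct of melanocytes 421 and 51. Their part in the results was not tested. Cycle gates were set on cells thinned to 5500 UMIs with a list of 5 S-phase genes (among them Tk1, Dut and 2810417H13Rik) and a list of 15 G2 and M genes, none of them among the 42. A cell with at least 5 UMIs of the G2 and M list was called G2/M-gated, one with at least 5 UMIs of the S list and fewer of the other was called S-gated, and both together were called cycling. Some genes of the G2 and M list are already transcribed in S phase, so the G2/M gate can hold cells in late S.

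The 42 genes followed the cycle gates in both libraries. In Ctrl basal-gated cells all 42 had an S-gated level above the non-cycling level with an interval that left out equality, where 11.6% of all genes did, and in cKO 41 did, where 10.8% of all genes did. The ratio of S-gated to non-cycling level had a median of 2.35 in Ctrl and 2.17 in cKO. In Ctrl the steepest was Mcm10, a helicase activation factor, which was at 2.56 CPM in non-cycling, 22.0 in S-gated and 10.7 in G2/M-gated basal cells (8.60-fold from non-cycling to S). Clspn, which encodes the checkpoint adaptor claspin, stood at 11.2, 79.9 and 58.8 CPM in the same order. The non-cycling level of Mcm10 rests on 24 UMIs, and the interval of its fold (5.34 to 14.3) overlapped that of Clspn (5.65 to 9.03). In cKO the steepest was Rad51ap1 at 6.52-fold, with Mcm10 at 5.92. The shallowest was Cdca7, a partner of the chromatin remodeller HELLS, at 105 CPM in non-cycling, 136 in S-gated and 70.0 in G2/M-gated cells.

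The G2/M-gated level split the list. In Ctrl basal cells 9 members were lower in G2/M-gated than in non-cycling cells, with intervals leaving out equality, where 17.9% of all genes were, and 27 were higher, where 20.8% of all genes were. In cKO 12 were lower, where 11.7% of all genes were, and 18 higher, where 19.1% of all genes were. In Ctrl the lower ones were Mcm2 to Mcm6, Gins2, the repair gene Ung and the chromatin genes Hells and Cdca7. Other licensing and helicase genes were higher, with Mcm10 at 4.19, Cdc45 at 3.16 and Gmnn at 1.87 times the non-cycling level. The intervals of Mcm7 and Cdc6 held equality. Mcm6, a helicase subunit, went from 113 CPM in non-cycling to 184 in S-gated and 62.9 in G2/M-gated Ctrl cells, Gins2 from 65.0 to 111 and 26.4, and Ung, a uracil-DNA glycosylase, from 78.4 to 169 and 28.2. Of the 3 genes of nucleotide supply, Tyms and Rrm1 kept their S-gated level in the G2/M gate and Rrm2 did not. Tyms, thymidylate synthase, was at 60.0, 206 and 215 CPM, and Rrm1, the large subunit of ribonucleotide reductase, at 51.6, 127 and 145, whereas Rrm2, the small subunit, was at 58.3, 282 and 153. Rad51ap1, a recombination factor, was at 8.44, 47.0 and 47.4. In cKO basal cells Tyms was at 54.8, 212 and 151 CPM, so it was below its S-gated level in the G2/M gate of that library. Rrm1 was at 47.9, 121 and 115 there, and its ratio of S-gated to G2/M-gated level held equality (1.06, 0.922 to 1.21). In Ctrl 38 members had their highest level in the S gate and 4 in the G2/M gate, and in cKO all 42 had it in the S gate. The interval of S-gated over G2/M-gated level held equality for Tyms, Rad51ap1, E2f8 and Blm in Ctrl, and for Rrm1 and Blm in cKO. The share of all genes that were highest in each gate was not counted.

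**Figure D1:**
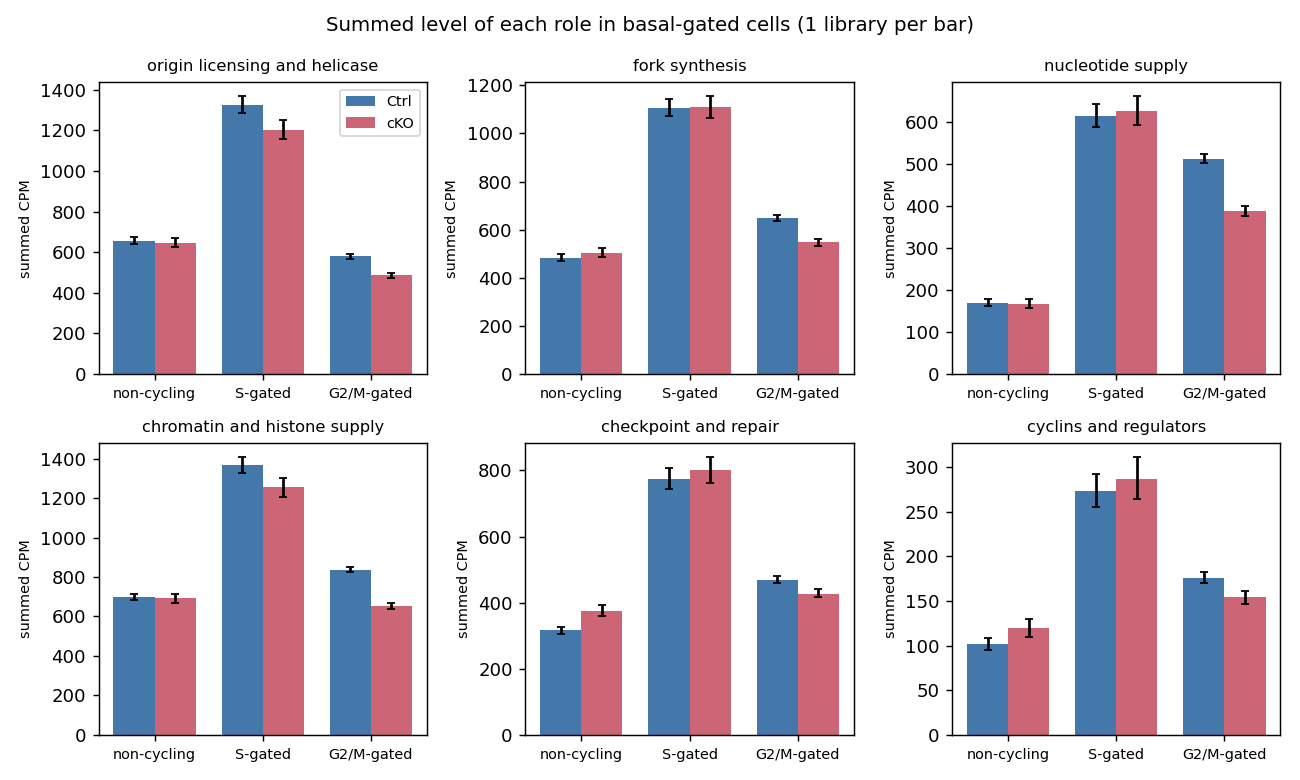
Summed CPM of the members of each role (y axes) in non-cycling, S-gated and G2/M-gated basal cells, for Ctrl (blue) and cKO (red), with 95% Poisson intervals and 1 library per bar. Bars are highest in the S gate, and in the G2/M gate the red bar is below the blue one for each role, with nucleotide supply at 514 CPM in Ctrl and 389 in cKO.

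Over all kept cells, most members were slightly lower in cKO. The members summed to 3086 CPM in Ctrl and 2822 in cKO, a ratio of 0.914 (0.907 to 0.922), and the median log2 ratio of cKO to Ctrl was -0.18, against 0.025 over all 12017 genes with at least 50 UMIs. All 42 members passed that minimum, and 32 were below Ctrl. A gene is counted below as lower where its cKO level was at most 80% of Ctrl and as higher where it was at least 125%. By these limits 2 members were lower (Rfc4, Nasp), where 9.59% of all genes were, and 3 were higher (Fen1, Exo1, Casp8ap2), where 18.4% of all genes were. Of the 6 members with the most UMIs, 5 were below Ctrl and Gmnn was level with it. Nasp, a histone chaperone, was at 254 CPM in Ctrl and 201 in cKO, Slbp, the histone mRNA stem-loop binding protein, at 182 and 159, and Tipin, of the fork protection complex, at 159 and 143. Tyms was at 153 and 128 CPM, Gmnn, which encodes the licensing inhibitor geminin, at 138 in both, and Rrm2 at 126 and 115.

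This small difference over all cells stood beside a larger share of cycling cells in cKO. In the basal gate 60.9% of Ctrl and 68.0% of cKO cells were cycling, 7.10 percentage points more (4.31 to 9.86). The S-gated share was 11.7% and 12.4% (0.61 points, -1.27 to 2.55), so the gap lay in the G2/M-gated share of 49.1% and 55.6% (6.49 points, 3.58 to 9.39). These shares leave out 172 Ctrl and 244 cKO cells of all types with fewer than 5500 UMIs. The gate genes also differed between the libraries. In cycling basal cells Tk1 was 1.40-fold higher in cKO and 2810417H13Rik was at 0.688, Nusap1 at 0.664, Dut at 0.806 and Top2a at 0.813 of Ctrl. Other genes of the G2 and M list were above Ctrl there, with Birc5 at 1.245, Mki67 at 1.17 and Cenpf at 1.16. Without the 3 gate genes that lay past the limits defined above (Tk1, 2810417H13Rik, Nusap1), a choice made after seeing the data, the cycling share was 6.29 points higher in cKO. That gate kept Birc5, Mki67 and Cenpf, and their part in the G2/M-gated share was not tested.

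Per cycling cell the members were lower more widely. Over cycling cells of all types (2498 Ctrl, 2155 cKO) the median log2 ratio was -0.26 and 36 of 42 members were below Ctrl, 12 of them past the lower limit, where 10.3% of all genes were, and 2 were higher, where 18.5% of all genes were. In cycling basal cells (1736 Ctrl, 1265 cKO) the members summed to 3602 CPM in Ctrl and 3067 in cKO, a ratio of 0.851 (0.841 to 0.862). The median log2 ratio there was -0.24, against 0.014 over 10568 genes. Of the 42 members 15 were lower, where 12.1% of all genes were, and 3 were higher, where 18.3% of all genes were. The counting interval lay below equality for 27 members, where it did for 19.4% of all genes, above it for 5, where it did for 22.6% of all genes, and held it for 10. Hells, at a ratio of 0.796, was the last past the lower limit, and Rrm1, at 0.816, the next above it.

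**Figure D2:**
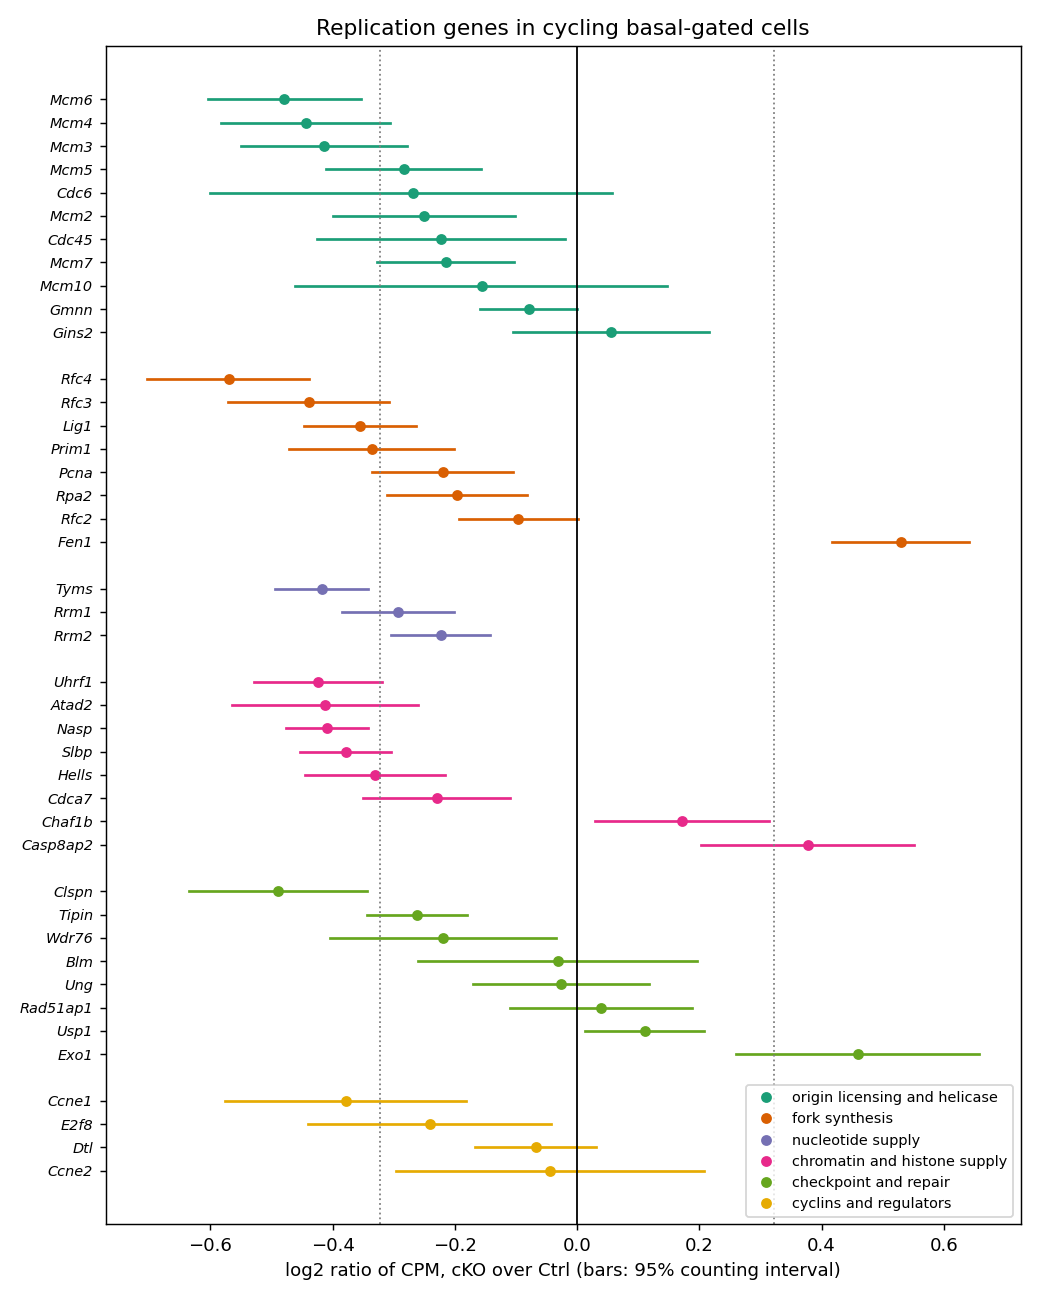
Log2 ratio of cKO to Ctrl CPM (x axis) for each of the 42 members (y axis, coloured by role) in cycling basal-gated cells; bars are 95% counting intervals and dotted lines mark 80% and 125% of Ctrl. Points lie left of zero for 35 members, with Rfc4 farthest left at -0.57, and Fen1, Exo1 and Casp8ap2 lie right of the upper line.

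Among the licensing and helicase genes, 10 of 11 were below Ctrl in cycling basal cells and 3 were past the limit, where 12.1% of all genes were. Mcm6 was lowest, at 83.5 CPM in Ctrl (79.3 to 87.7) and 59.9 in cKO (55.8 to 64.2), a ratio of 0.718 (0.658 to 0.782). Mcm4 followed at 67.1 and 49.4 CPM and Mcm3 at 68.9 and 51.7. The other helicase subunits Mcm2, Mcm5 and Mcm7 were at 0.841, 0.822 and 0.862 of Ctrl, so all 6 subunits were below Ctrl with intervals that left out equality, 3 of them past the lower limit. Gins2, a subunit of the GINS complex that joins the active helicase, was highest, at 40.6 CPM in Ctrl and 42.2 in cKO, with an interval that held equality (0.930 to 1.16). Mcm10 and Cdc6, which loads the helicase, had only 234 and 211 UMIs in Ctrl, and their intervals held equality.

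The fork genes held both ends of the list. Rfc4, a small subunit of the clamp loader (chr16:23113943-23127737, minus strand, GRCm38), was the lowest of all members, at 77.7 CPM in Ctrl (73.7 to 81.8) and 52.3 in cKO (48.5 to 56.4), a ratio of 0.674 (0.614 to 0.738). Rfc3, another small subunit, was at 74.4 and 54.9 CPM, a ratio of 0.738, whereas Rfc2 was at 116 and 109, a ratio of 0.936 (0.875 to 1.001). Clamp loader subunits thus did not share one ratio, and the intervals of Rfc3 and Rfc4 lay wholly below that of Rfc2. Prim1, the catalytic primase subunit, was at 67.7 and 53.6 CPM, and Lig1, DNA ligase I, at 145 and 113. Pcna, the sliding clamp, was at 87.3 and 75.0, and Rpa2, of the single-strand binding complex, at 87.1 and 76.0. Fen1, the flap endonuclease (chr19:10199132-10204169, minus strand), went the other way, at 69.8 CPM in Ctrl (66.0 to 73.7) and 101 in cKO (95.4 to 106), a ratio of 1.44 (1.34 to 1.56). FEN1 and DNA ligase I act one after the other on the same Okazaki fragment, and here their mRNAs lay on opposite sides of Ctrl.

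All 3 genes of nucleotide supply were below Ctrl in cycling basal cells. Tyms was lowest, at 214 CPM in Ctrl (207 to 221) and 160 in cKO (153 to 167), a ratio of 0.749 (0.710 to 0.789). Rrm1 was at 142 and 116 CPM and Rrm2 at 175 and 150, with ratios of 0.816 and 0.857.

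Of the 8 chromatin and histone genes 5 were past the limit below Ctrl, where 12.1% of all genes were. Uhrf1, which brings DNA methylation to newly copied DNA, was lowest, at 115 CPM in Ctrl and 86.1 in cKO, a ratio of 0.746 (0.693 to 0.802). Atad2, a bromodomain ATPase, was at 55.4 and 41.6 CPM, Nasp at 280 and 211, Slbp at 223 and 171, and Hells, a chromatin remodeller, at 92.7 and 73.7. Cdca7 was at 81.2 and 69.3. Chaf1b, a subunit of the CAF-1 histone chaperone, was at 49.1 CPM in Ctrl and 55.3 in cKO, a ratio of 1.13 (1.02 to 1.24). Casp8ap2, a factor of replication-dependent histone gene expression (chr4:32615451-32653265, plus strand), was highest, at 30.5 CPM (28.0 to 33.1) and 39.6 (36.3 to 43.1), a ratio of 1.30 (1.15 to 1.47). The chaperones NASP and CAF-1 both handle new histones, and here Nasp and Chaf1b were on opposite sides of Ctrl. Chaf1a, another CAF-1 subunit and not a member, had a ratio of 1.03 with an interval that held equality (0.936 to 1.14).

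Of the 8 checkpoint and repair genes 5 were below Ctrl in cycling basal cells. Past the limits were 1 below, where 12.1% of all genes were, and 1 above, where 18.3% of all genes were. Clspn was lowest, at 62.4 CPM in Ctrl (58.8 to 66.1) and 44.4 in cKO (40.9 to 48.2), a ratio of 0.713. Tipin was at 175 and 146. Exo1, an exonuclease of mismatch repair and end resection (chr1:175880581-175913489, plus strand), was highest, at 22.9 CPM (20.8 to 25.2) and 31.5 (28.5 to 34.7), a ratio of 1.37 (1.20 to 1.58). Blm, Ung and Rad51ap1 had ratios between 0.978 and 1.03 with intervals that held equality. Usp1, a deubiquitinase of PCNA, was at 1.08 (1.01 to 1.16) and Wdr76 at 0.859.

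Of the 4 cyclins and regulators, Ccne1, cyclin E1, was lowest at 32.5 CPM in Ctrl and 25.0 in cKO, a ratio of 0.769 (0.670 to 0.881). Its paralogue Ccne2 was highest, at 17.4 and 16.9, a ratio of 0.970 (0.814 to 1.15). E2f8, a repressive E2F factor, was at 30.1 and 25.4 CPM, and Dtl, the substrate receptor that marks licensing factors for degradation in S phase, at 113 and 107.

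The genotype ratio depended on the cycle gate. In S-gated basal cells (335 Ctrl, 230 cKO) the members summed to 5464 CPM in Ctrl and 5281 in cKO, a ratio of 0.967 (0.943 to 0.990), with a median log2 ratio of -0.032. There 4 members were lower (Mcm3, Mcm4, Mcm6, Clspn), where 15.1% of all genes were, and 3 were higher (Fen1, Exo1, Rad51ap1), where 20.3% of all genes were. In G2/M-gated basal cells (1401 Ctrl, 1035 cKO) the ratio was 0.825 (0.813 to 0.837) and the median -0.30, with 19 members lower, where 12.6% of all genes were, and 3 higher, where 18.8% of all genes were. In non-cycling basal cells (1116 Ctrl, 596 cKO) the ratio was 1.03 (1.01 to 1.06), with 1 of 41 measured members lower, where 14.8% of all genes were, and 5 higher, where 16.8% of all genes were. The intervals of the 3 summed ratios did not overlap.

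Members differed in where in the cycle the gap lay. Mcm6 was at 184 CPM in Ctrl and 133 in cKO S-gated cells, and at 62.9 and 46.5 in G2/M-gated cells, so it was lower by a like ratio in both. Tyms was at 206 and 212 CPM in S-gated cells, and at 215 and 151 in G2/M-gated cells, so its gap lay in the G2/M gate. Prim1 was likewise at 91.7 and 93.8 in S-gated cells and at 62.8 and 46.2 in G2/M-gated cells. Fen1 was higher in cKO in every gate, at 33.1 and 52.7 CPM in non-cycling, 92.3 and 144 in S-gated, and 65.2 and 92.7 in G2/M-gated cells. Exo1 was higher in each as well, at 5.55 and 9.75, 33.9 and 46.6, and 20.7 and 28.7 CPM.

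A finer ordering of basal cells by their UMIs of the G2 and M list, with limits chosen after seeing the data, also placed the gap in cells late on that list. Cells with 0 such UMIs had 2488 CPM of members in Ctrl and 2786 in cKO, a ratio of 1.12 (1.09 to 1.15). With 2 to 4 UMIs the levels were 4271 and 3951 CPM (0.925), and with 5 to 9 they were highest, at 4909 and 4180 (0.852). With 10 to 19 UMIs the levels were 3613 and 2899 CPM (0.802), and with 20 or more 1930 and 1539 (0.797). The MCM subunits and the nucleotide supply genes parted along this order. Mcm2 to Mcm7 together had ratios of 0.989, 0.960, 0.790, 0.742, 0.785 and 0.837 from the lowest to the highest class, with the smallest at 5 to 9 UMIs. Rrm1, Rrm2 and Tyms together had 1.15, 1.06, 0.961, 0.885, 0.719 and 0.663, with the smallest in the cells with the most G2 and M UMIs. Several genes of that list differed between the libraries themselves, and the part of this in the ratios was not tested.

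**Figure D3:**
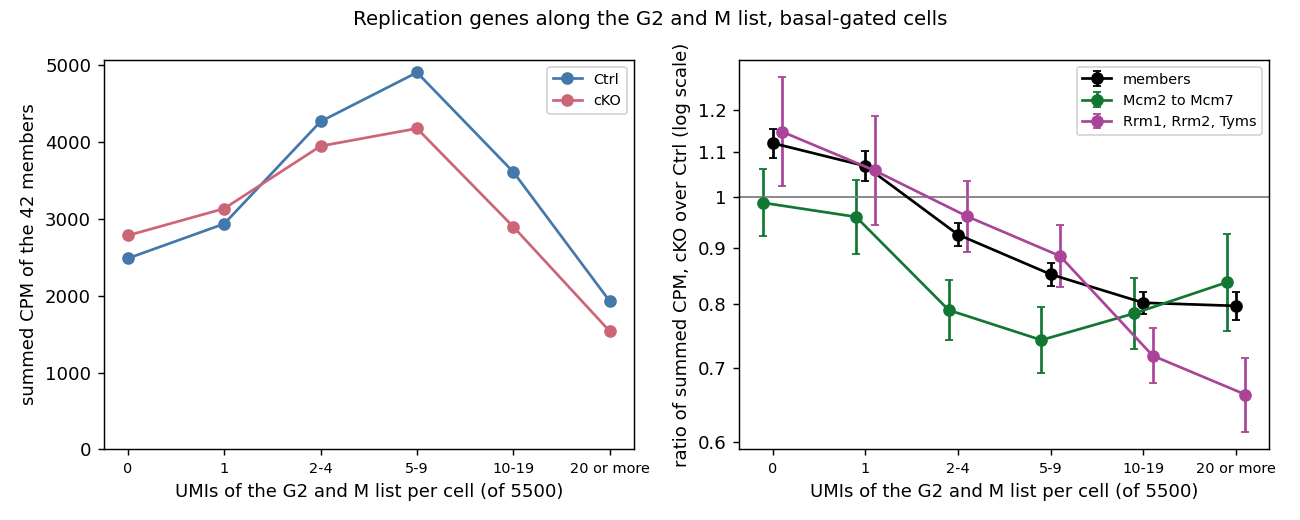
Basal-gated cells ordered by UMIs of the G2 and M list among 5500 UMIs (x axes). Left, summed CPM of the 42 members per library; right, ratio of cKO to Ctrl on a log axis with 95% counting intervals for all members, Mcm2 to Mcm7, and Rrm1, Rrm2 and Tyms. The cKO line starts above Ctrl at 2786 against 2488 CPM and ends below it at 1539 against 1930, and the ratio of the nucleotide genes goes on down to 0.663 in the last class.

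As the members stood higher in S-gated than in non-cycling basal cells, their promoters were searched for E2F letters. RefSeq promoters (GRCm38.p6, 250 bases before to 50 after the start) were matched by symbol for 33 of the 42 members. The letters TTTCCCGC, TTTCGCGC, TTTGCCGC or TTTGGCGC, on either strand, were in 13 of these 33 (39.4%), against 2.60% of all 27025 genes with an entry. They were also in 17 of 48 replication genes outside the list that had an entry (35.4%), so this share was not particular to the members. CCAAT was in 66.7% of the members and 41.1% of all genes, and TTTGAA, the core of the CHR element known from G2 and M genes, in 18.2% and 20.2%. The 13 members with E2F letters had log2 ratios in cycling basal cells from -0.49 (Clspn) to 0.38 (Casp8ap2), with a median of -0.33. The 20 without them ranged from -0.57 (Rfc4) to 0.53 (Fen1), with a median of -0.22, so the ranges overlapped. Stretches that lie wholly before the start are shown for 3 members that were below Ctrl and for Casp8ap2, which was above it, to set the same letters beside opposite ratios. They are written 5′ to 3′ on the gene's strand, and capitals mark the E2F letters. The Mcm6 stretch is chr1:128359741-128359851 (minus strand), that of Mcm5 chr8:75109320-75109419 (plus), that of Hells chr19:38930890-38930989 (plus) and that of Casp8ap2 chr4:32615258-32615357 (plus).
Mcm6: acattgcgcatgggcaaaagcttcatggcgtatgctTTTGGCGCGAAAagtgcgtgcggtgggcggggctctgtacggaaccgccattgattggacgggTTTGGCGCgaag
Mcm5: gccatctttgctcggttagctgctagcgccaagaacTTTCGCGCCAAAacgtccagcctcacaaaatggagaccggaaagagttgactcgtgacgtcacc
Hells: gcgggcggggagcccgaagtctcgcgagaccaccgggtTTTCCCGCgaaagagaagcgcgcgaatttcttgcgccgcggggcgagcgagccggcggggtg
Casp8ap2: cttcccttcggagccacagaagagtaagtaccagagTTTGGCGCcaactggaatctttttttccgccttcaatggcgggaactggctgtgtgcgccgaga
In Mcm6 and Mcm5 a pair of matches on opposite strands overlaps to form 1 run of 12 capitals, and Mcm6 holds a further match nearer the start. In cycling basal cells these genes had log2 ratios of -0.48 (Mcm6), -0.28 (Mcm5), -0.33 (Hells) and 0.38 (Casp8ap2).

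Across the 4 named types, the members were lowest in suprabasal cells. In Ctrl the members summed to 3199 CPM in basal, 1682 in suprabasal, 3150 in WNT-high and 3533 in WNT-low cells, and in cKO to 2916, 1837, 2876 and 2945. Of the 42 members 40 had their lowest level of the 4 types in suprabasal cells in Ctrl and 39 in cKO. How many of all genes were lowest there was not counted. In cells thinned to 5500 UMIs, the median number of member UMIs per basal cell was 14 in both libraries, with quartiles at 8 and 25 in Ctrl and 8 and 23 in cKO. Suprabasal cells had a median of 6 in Ctrl and 8 in cKO. The few cells gated by Merkel markers, 31 in Ctrl and 19 in cKO, had medians of 7 and 4.

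In cycling cells the summed ratio was below equality in each type. It was 0.920 (0.886 to 0.955) in suprabasal, 0.915 (0.885 to 0.945) in WNT-high, 0.778 (0.756 to 0.800) in WNT-low and 0.785 (0.761 to 0.810) in ungated cells. In WNT-low cycling cells (218 Ctrl, 233 cKO) 27 of 42 members were lower, where 15.1% of all genes were, and 1 was higher, where 15.6% of all genes were. In ungated cycling cells 24 were lower, where 24.4% of all genes were, and 2 higher, where 16.4% of all genes were. In WNT-high cycling cells 5 of 41 were lower, where 15.2% of all genes were, and 4 higher, where 18.8% of all genes were. In suprabasal cycling cells 7 of 39 were lower, where 15.8% of all genes were, and 3 higher, where 22.8% of all genes were, so in these the lower share stood near that of all genes. In WNT-high cells the summed ratio was 0.839 (0.789 to 0.892) in non-cycling, 0.837 (0.779 to 0.899) in S-gated and 0.953 (0.919 to 0.989) in G2/M-gated cells. The G2/M gate thus lay nearest to Ctrl here and farthest from it in basal cells. The WNT-high ratios rest on 114 Ctrl and 95 cKO non-cycling, 30 and 31 S-gated, and 145 and 193 G2/M-gated cells. Their intervals do not cover the spread among so few cells.

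Of 39 members measured in the cycling cells of all 4 named types, 19 were below Ctrl in each of them, where 23.0% of 6181 genes measured in all 4 were, and 2, Fen1 and Exo1, were above Ctrl in each, where 23.6% were. Fen1 had log2 ratios of 0.53 in basal, 0.75 in suprabasal, 0.58 in WNT-high and 0.31 in WNT-low cycling cells. Rfc4 had -0.57, -0.22, -0.26 and -0.48, Tyms -0.42, -0.30, -0.23 and -0.46, and Clspn -0.49, -0.53, -0.20 and -0.48 in the same order. The types came from the same pair of libraries and are not replicates of one another.

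Non-cycling suprabasal cells stood apart from the other types. There (266 Ctrl, 173 cKO) the members summed to 1036 CPM in Ctrl and 1356 in cKO, a ratio of 1.31 (1.24 to 1.38), and 21 of 33 measured members were higher, where 20.1% of all genes were, and 0 were lower, where 17.1% of all genes were. Gins2 was at 20.9 and 44.9 CPM, on 63 and 83 UMIs, a ratio of 2.15 (1.53 to 3.03). Rrm2 was at 19.2 and 36.2 CPM, on 58 and 67 UMIs, and Lig1 at 31.8 and 54.1, on 96 and 100. The levels in both libraries stayed below those of non-cycling basal cells, 2426 CPM in Ctrl and 2506 in cKO. The gate on Krt1 and Krt10 takes genes that were lower in cKO over all kept cells, with Krt10 at 2479 CPM in Ctrl and 1790 in cKO, and its part in this ratio was not tested.

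**Figure D4:**
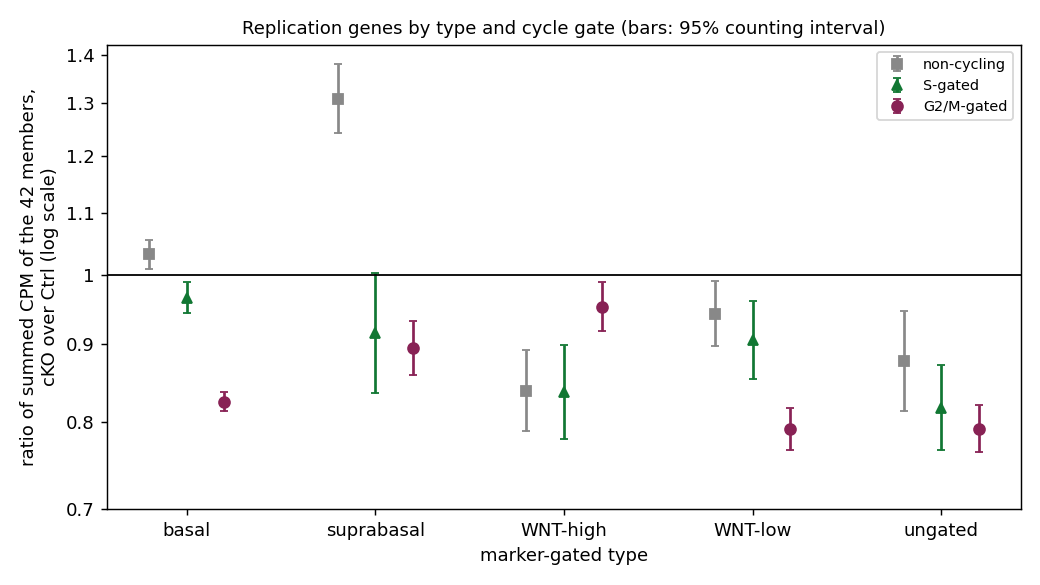
Ratio of the summed CPM of the 42 members, cKO over Ctrl, on a log axis (y axis) in each marker-gated type (x axis), for non-cycling, S-gated and G2/M-gated cells, with 95% counting intervals. Most points lie below 1, non-cycling suprabasal cells lie highest at 1.31, and G2/M-gated WNT-low and ungated cells lie at 0.791 and 0.792.

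Other genes of replication gave a reference for the 42. A list of 57 further genes, such as polymerase, origin recognition and remaining GINS subunits, had a median log2 ratio of -0.13 in cycling basal cells. Of these 57 genes 11 were lower and 1 was higher by the same limits, where 12.1% and 18.3% of all genes were, and their summed level was 2651 CPM in Ctrl and 2584 in cKO. The lowest were Prim2, the large primase subunit, at 26.9 and 18.3 CPM, Rnaseh2b, of the enzyme that removes RNA from DNA, at 75.8 and 53.5, and Pola1, the catalytic subunit of polymerase alpha, at 31.6 and 22.3. Both primase subunits were thus below Ctrl, Prim1 at 0.792 and Prim2 at 0.681. The highest were Dbf4, the activator of the CDC7 kinase, at 58.2 and 72.9 CPM, Mcm9 at 3.30 and 4.09 with an interval that held equality (0.844 to 1.82), and Pole4 at 84.4 and 104. Pola1 lies on the X chromosome, in libraries that differ in sex, and none of the 42 members does.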

How the data were processed

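Cells were sorted as DAPI-negative, lineage-negative, YFP+ and integrin-positive and run on a droplet 3′ platform. The authors deposited raw UMI counts per gene and barcode for all barcodes, made with Cell Ranger (version 2.0 in the submitters' processing notes) on mm10. Doublets were not removed in the main values; Scrublet called 0.135% and 0.0839% of cells, too few to rely on, so that its highest 4% of scores were left out as an alternative.

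Barcodes with at least 1800 genes were kept. Type gates were at least 5 UMIs of other-cell or Merkel markers, 20 per 10000 UMIs of Krt1 and Krt10, 2 UMIs of WNT-high (Shh, Dkk4, Fgf20, Wnt10b) or 4 of WNT-low (Sox9, Krt79) markers, and 40 per 10000 of Krt5 and Krt14, taken in that order. UMIs were summed per library and cell set and scaled to CPM. Ratios have exact conditional binomial intervals, levels exact Poisson, shares Clopper-Pearson and differences of shares Newcombe intervals. Genes needed 50 UMIs over both sums. The code was tested on simulated data. The members and lists were chosen with earlier results of these data known. Values per library are given for the members of each role with the highest and lowest ratio in cycling basal cells, the 6 members of highest CPM and those past 1.25-fold; of the other replication genes the 3 highest and 3 lowest are named; any further member named was chosen after its values were seen. Not every gene of the cycle gate lists is reported here.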

Additional observations from a re-analysis of the deposited data

Results flagged for a closer look

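The summed members were above Ctrl in some types and below it in others. They were higher in cKO over all suprabasal cells (ratio 1.09), in non-cycling suprabasal cells (1.31) and in non-cycling basal cells (1.03), and lower over all cells of the other types, at 0.912 in basal, 0.913 in WNT-high, 0.834 in WNT-low and 0.770 in ungated cells. With 1 library per genotype the difference between types was not tested.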

How the results depend on the processing

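With 1 library per genotype no replicate could be left out. No paired analysis was possible because each genotype has 1 library and no test was made. Over the alternatives tried, the median log2 ratio of the members stayed below zero, between -0.23 and -0.14 over all kept cells, -0.30 and -0.076 in cycling cells of all types, and -0.36 and -0.032 in cycling basal cells. The cycling share of basal cells stayed 6.04 to 8.16 points higher in cKO. Taking S-gated cells only moved the medians to -0.076 (all types) and -0.032 (basal) and the members lower to 4, and put Prim1 at 0.032 and Tyms at 0.040 (log2), above Ctrl. A minimum of 2500 genes moved the medians to -0.23 (all kept cells) and -0.36 (cycling basal) and the members lower to 24. Median-of-ratios scaling put the median over all kept cells at -0.21. Without thinning, the S-gated share of basal cells differed by -1.40 points, cKO minus Ctrl. The cause of these was not tested, other than that fewer cells enter the first 2. Members higher numbered 2 or 3 throughout. Of 1008 values of single members 44 moved beyond their counting interval, and 2 more did so from past the limits to the other side of Ctrl. In cycling basal cells 14 of the 42 members changed side of Ctrl under at least 1 alternative, 13 of them with S-gated cells only, and 2 of the 14, Prim1 and Tyms, were past the limits in the main values.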
